A study of Mus musculus with 15 samples.

Results

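The cadherins and protocadherins are calcium-dependent adhesion proteins, and 93 of the 24421 genes measured in mouse brain tumours carry a symbol made of Cdh and a number or of Pcdh with numbers and lower-case letters. The rule is the spelling of the symbol and uses no measured value, although the family was taken up with earlier results of these data known. They are 23 cadherins (5 classical type I, 13 classical type II and 5 others) and 70 protocadherins. Of the protocadherins, 58 lie in the clustered gene arrays (14 alpha, 22 beta and 22 gamma) and 12 are non-clustered, 10 of them of the delta class. The tumours came from models called HGG and EPN in the labels, the usual abbreviations of high-grade glioma and ependymoma. Poly(A) RNA was sequenced from 15 pieces of tumour tissue, 3 in each of 5 groups: HGG control, HGG labelled Sox9-LOF, HGG Sox9-GOF, EPN control and EPN Sox9-GOF, where LOF stands for loss and GOF for gain of function. Sox9 is a transcription factor of the SOX family. How the models were made, which alleles or agents the controls also carry, and the age and strain of the mice, are not stated in any source used. Nothing in the labels ties each replicate to an animal of its own, so p-values here measure the spread between these samples, which may in part be technical.

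Classical cadherins bind the same cadherin on a neighbouring cell through repeated extracellular domains and are anchored to actin by catenins at adherens junctions. Type I members such as E-cadherin and N-cadherin make strong, broad junctions, and type II members are expressed in finer patterns that sort neurons and vessels. Protocadherins have related extracellular domains but no catenin-binding tail. The clustered ones are chosen promoter by promoter in single neurons, with the help of CTCF and cohesin, and give a neuron an identity by which it recognises its own branches. Delta protocadherins are expressed in patterns across brain regions, and some of them signal to the actin cytoskeleton through the WAVE complex. Cadherin-23 and protocadherin-15 form the tip link of inner-ear hair cells.

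The starts of 4 delta or other non-clustered protocadherins to which the results return are shown here, because Pcdh15, Pcdh17 and Pcdh8 fell in EPN Sox9-GOF against HGG Sox9-GOF and Pcdh18 rose in EPN against HGG controls. Each run covers 250 bases before to 50 after a RefSeq transcription start (RefSeq, build GRCm38.p6), 5′ to 3′ on the strand of the gene. Capitals mark ACAAT or its reverse ATTGT, the core letters of SOX sites, and CAGGTG or its reverse CACCTG, an E-box form read by Snail and ZEB factors. The Pcdh15 start (chr10:73821617-73821916, plus strand) lies inside the span of the gene, which the GRCm38 annotation begins further upstream.
Pcdh15: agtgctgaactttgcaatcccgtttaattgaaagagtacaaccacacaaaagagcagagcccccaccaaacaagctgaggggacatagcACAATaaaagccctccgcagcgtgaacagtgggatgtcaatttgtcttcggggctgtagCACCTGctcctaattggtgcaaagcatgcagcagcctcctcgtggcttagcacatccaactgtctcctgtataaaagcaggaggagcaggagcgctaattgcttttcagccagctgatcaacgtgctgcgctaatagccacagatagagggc
Pcdh17 (chr14:84443313-84443612, plus strand): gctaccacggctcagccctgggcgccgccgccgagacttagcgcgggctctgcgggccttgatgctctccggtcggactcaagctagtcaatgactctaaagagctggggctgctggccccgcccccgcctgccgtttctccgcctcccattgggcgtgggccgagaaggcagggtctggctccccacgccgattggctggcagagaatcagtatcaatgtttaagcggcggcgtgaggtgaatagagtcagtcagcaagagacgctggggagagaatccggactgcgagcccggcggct
Pcdh8 (chr14:79771263-79771562, minus strand): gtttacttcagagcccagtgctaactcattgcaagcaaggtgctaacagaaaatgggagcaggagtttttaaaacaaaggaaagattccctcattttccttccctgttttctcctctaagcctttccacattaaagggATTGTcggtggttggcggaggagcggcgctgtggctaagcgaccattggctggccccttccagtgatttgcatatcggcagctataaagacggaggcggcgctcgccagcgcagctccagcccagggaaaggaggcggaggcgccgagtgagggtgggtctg
Pcdh18 (chr3:49757267-49757566, minus strand): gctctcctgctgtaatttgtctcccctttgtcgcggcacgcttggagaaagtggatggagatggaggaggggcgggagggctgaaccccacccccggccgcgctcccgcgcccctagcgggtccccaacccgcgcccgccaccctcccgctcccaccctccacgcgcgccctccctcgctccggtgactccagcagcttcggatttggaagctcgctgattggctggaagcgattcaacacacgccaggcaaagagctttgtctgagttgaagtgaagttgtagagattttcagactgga
The Pcdh15 window held 1 SOX core and 1 E-box, the Pcdh8 window 1 SOX core, and the Pcdh17 and Pcdh18 windows neither. RefSeq's table held 25 promoters of 22 members. A SOX core in either orientation occurred in 3 of these 25 (12%) and in 10192 of all 32851 promoters of that length (31.0%). The E-box occurred in 5 of 25 (20.0%) against 6640 of 32851 (20.2%). Those 5 belonged to 3 of the 22 members, as several were neighbouring starts of Cdh7. Such matches describe letters, not sites that a factor was measured to bind.

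Library depth ran from 4665428 to 14119140 reads assigned to genes, with a median of 10578708. Levels are given as rescaled counts, that is reads divided by 1 size factor per library computed over all 15. Sox9 was at 218, 285 and 310.3 in the 3 HGG controls, whereas the libraries labelled Sox9-LOF had 739, 579 and 395. It was at 1275, 1537 and 1391 in HGG Sox9-GOF, 1045, 1040 and 1189 in EPN control and 2055, 1834 and 2692 in EPN Sox9-GOF. The level in all 3 libraries labelled Sox9-LOF was thus above that in all 3 HGG controls, against the label, so no direction for loss of Sox9 is drawn from them. The HGG controls were the least alike of any group (pairwise r across genes 0.819 to 0.861, against 0.930 to 0.965 within the other groups). HGG control 1 held 109329 rescaled counts over 6 choroid plexus markers, against 142 and 108 in HGG controls 2 and 3, and was the lowest HGG control for 42 of the 79 members with a mean of at least 10. Ependymal markers did not mark the EPN libraries: their summed level was 61.5 to 187 in EPN and 112 to 450 in HGG.

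Between 75 and 90 of the 93 members had at least 1 read in a library, and 54 to 83 had at least 10. EPN Sox9-GOF replicate 3 had the fewest by both counts. Averaged over 15 libraries, 79 members reached a rescaled count of 10. Each test instead took genes that averaged at least 10 in the libraries it compared, which gave 66 to 82 members. Counts of tested members are thus not counts of the family. A member low in 1 group could pass through the other alone, and could then hardly be seen to rise in the low group. Pcdha4, Pcdha6 and Pcdha7 had no read in any library. Per kilobase of exon that no other gene shares, Pcdhgc3 was the most abundant member, at 346 rescaled counts per kb over the 15 libraries. Cdh2, the N-cadherin of neural tissue, followed at 174, and then Cdh22 at 85.8, Cdh20 at 77.7 and Cdh19 at 69.0. The most abundant delta protocadherins per kb were Pcdh10 at 67.3 and Pcdh9 at 65.2. Cdh16, a kidney cadherin, and Cdh26 stayed under 10 rescaled counts in every library. Cdh17, an intestinal cadherin, passed 10 in HGG control replicates 1 and 3 only.

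**Figure D1:**
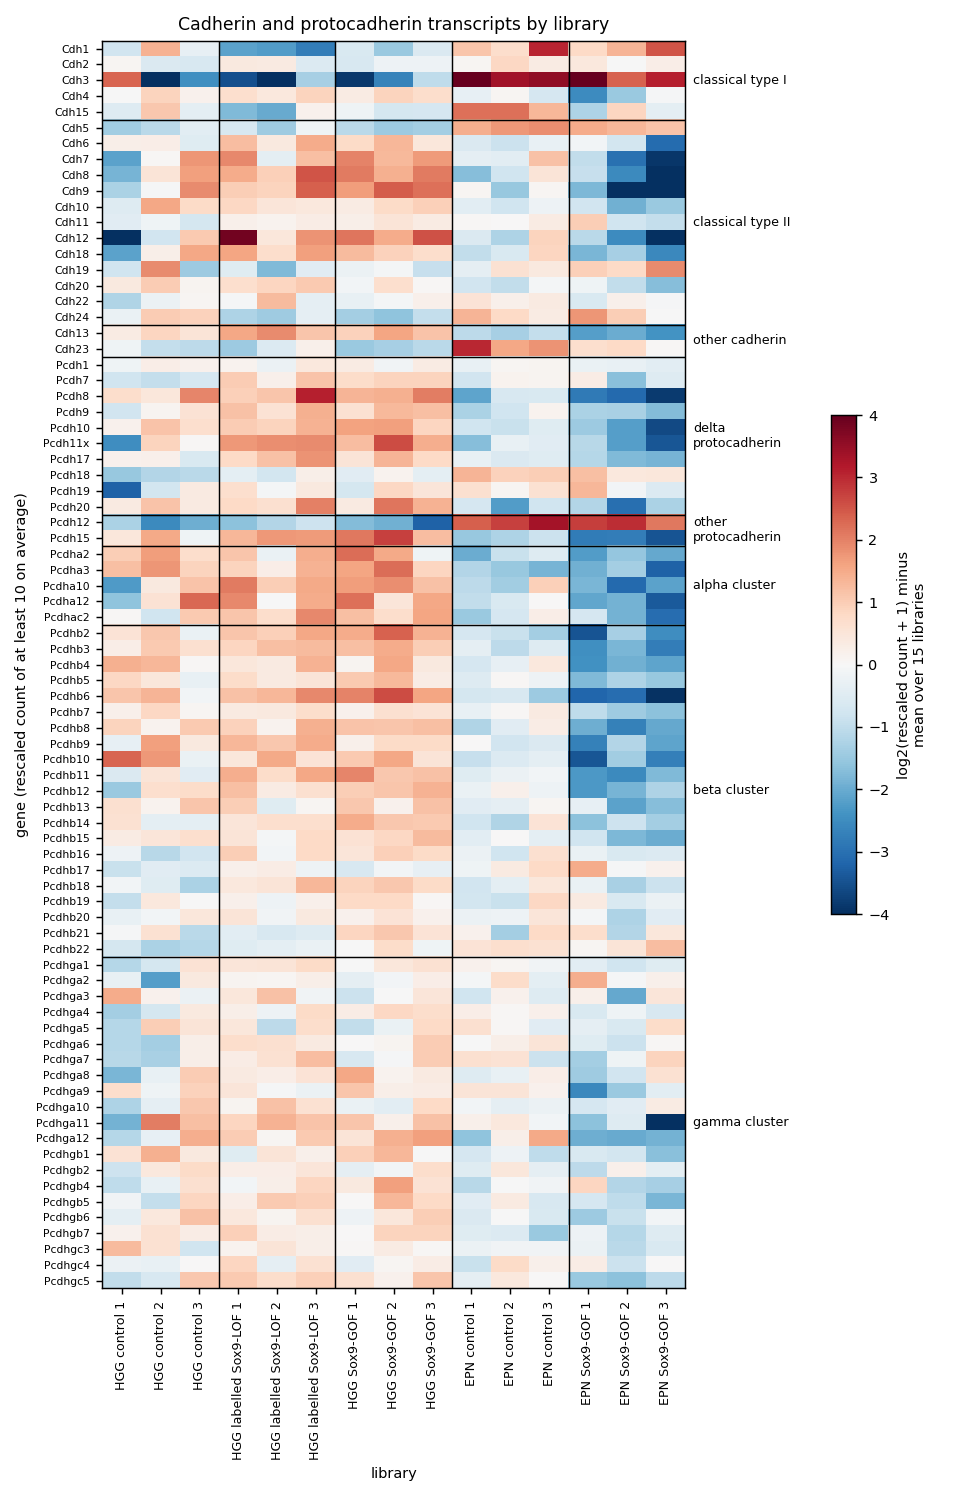
Levels of the 79 members with a mean rescaled count of at least 10 (rows, grouped by class) in the 15 libraries (columns). Colour is log2(rescaled count + 1) centred on the 15-library mean of each gene, and blue is low. The alpha and Pcdhb1 to Pcdhb15 rows have their lowest group mean in EPN Sox9-GOF, as do 7 of the 10 delta rows, all but Pcdh7, Pcdh18 and Pcdh19.

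EPN tumours with Sox9 gain of function differed from HGG tumours with the same label in many members, most of them protocadherins that were lower in EPN. Of 79 members tested between EPN Sox9-GOF and HGG Sox9-GOF, 45 fell and 7 rose at an adjusted p under 0.05, where 21.2% of all 14964 genes tested were lower and 19.6% higher. Protocadherins gave 37 of the 45 that were lower and 1 of the 7 that were higher (59 tested, median log2 difference -1.91), and cadherins gave 8 lower and 6 higher (20 tested, median -0.89). Across all genes the median was 0.04. Members lower here that averaged under 10 in EPN Sox9-GOF passed the filter only through HGG Sox9-GOF, so their direction was set by it. Of the cadherins these were Cdh7, Cdh8, Cdh9, Cdh12 and Cdh18. Of the protocadherins they were Pcdh8, Pcdha2, Pcdha3, Pcdha10, Pcdha12, Pcdhb2, Pcdhb3, Pcdhb4, Pcdhb6, Pcdhb8, Pcdhb11, Pcdhb12, Pcdhb13, Pcdhb15 and Pcdhga12. The counts and medians above include them. Without EPN Sox9-GOF replicate 3 the cadherin median was -0.52. The test was limma on log2(rescaled count + 1) with Benjamini-Hochberg adjustment, and DESeq2 on the reads called 49 lower and 9 higher (23.7% and 21.9% of all genes).

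Fewer members passed in the same contrast between control tumours. Of 78 members tested between EPN control and HGG control, 5 were called higher and 4 lower, where 9.51% and 5.83% of all 15105 genes tested were called, so neither share of members lies above the background. DESeq2 called 7 higher and 14 lower, against 14.6% and 14.5% of all genes. Cadherins had a median log2 difference of 0.30 and protocadherins of -0.26. The cadherin median was -0.13 with DESeq2 and -0.17 with edgeR, so its sign depended on the tool. Leaving out 1 library at a time gave cadherin medians of -0.30 (without HGG control 1) to 0.60 (without HGG control 2) and protocadherin medians of -0.51 (without HGG control 1) to -0.06 (without HGG control 3). Without HGG control 1 the fit called 7 members higher and 6 lower, and 1969 and 1664 of 15030 genes. Without any 1 of the EPN controls, 3 members were called higher and 0 or 1 lower. Over all genes those fits called 278 to 476 higher and 90 to 234 lower. Without HGG control 2, 2 members were called lower, as were 590 of 15055 genes.

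Within a model, no member passed the limma test in any of the 3 comparisons with controls, and neither did any other gene. In HGG, 61 of 79 tested members were higher in the libraries labelled Sox9-LOF than in controls, as were 7537 of all 14861 genes. In HGG Sox9-GOF 66 of 82 were higher, as were 7827 of 15092 genes. In EPN, 57 of 66 members were lower in Sox9-GOF, as were 6570 of 14591 genes. Both HGG comparisons use the same 3 controls, so they are not independent of each other. The share of genes passing at 0.05 in the labelled Sox9-LOF comparison was 0 of 14861 (0%). Unadjusted p was under 0.05 for 14 members higher and 2 lower there (9.12% and 8.14% of all genes), and 15 and 2 members did not overlap between groups (12.8% and 11.7%). For HGG Sox9-GOF the background was likewise 0 of 15092 (0%), with 16 members higher and 1 lower at unadjusted p under 0.05 (11.7% and 11% of all genes). There 19 members higher and 2 lower did not overlap between groups (15.3% and 15.2%). For EPN Sox9-GOF it was 0 of 14591 (0%), with 1 member higher and 19 lower at unadjusted p under 0.05 (4.31% and 10.7%), and 1 and 22 without overlap (9.45% and 12.5%).

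On the same reads edgeR called 0 members in each of these comparisons and DESeq2 called some. In the libraries labelled Sox9-LOF it called 3 higher and 2 lower (4.23% and 4.78% of all genes), in HGG Sox9-GOF 8 higher and 1 lower (7.26% and 7.72%), and in EPN Sox9-GOF 0 higher and 10 lower (0.829% and 4.94%). The size of the HGG differences depended on HGG control 1. With it the protocadherin median was 0.77 in HGG Sox9-GOF and 0.67 in the libraries labelled Sox9-LOF, and without it 0.43 and 0.39. The cadherin medians were 0.21 and 0.40 with it and 0.10 and 0.34 without, and that of HGG Sox9-GOF was 0.58 without HGG control 2 and -0.0081 without HGG Sox9-GOF replicate 3. As a possible sign of RNA quality, Mir6236 was at 1635 to 3188 in HGG control, 198 to 314 in the libraries labelled Sox9-LOF and 223 to 885 in HGG Sox9-GOF. In EPN it was at 121 to 255 in controls and 322 to 1374 in Sox9-GOF. Lars2 was at 7672 to 9900 in HGG control, 2562 to 3794 in those labelled Sox9-LOF and 2486 to 8886 in HGG Sox9-GOF. Rn45s was at 9499 to 26490, 7116 to 9886 and 7015 to 65720 in that order, ranges that overlap. In EPN control and EPN Sox9-GOF, Lars2 was at 1823 to 2772 and 2892 to 12670, and Rn45s at 6327 to 7518 and 20440 to 102200. The part of RNA quality in these differences was not tested.

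**Figure D2:**
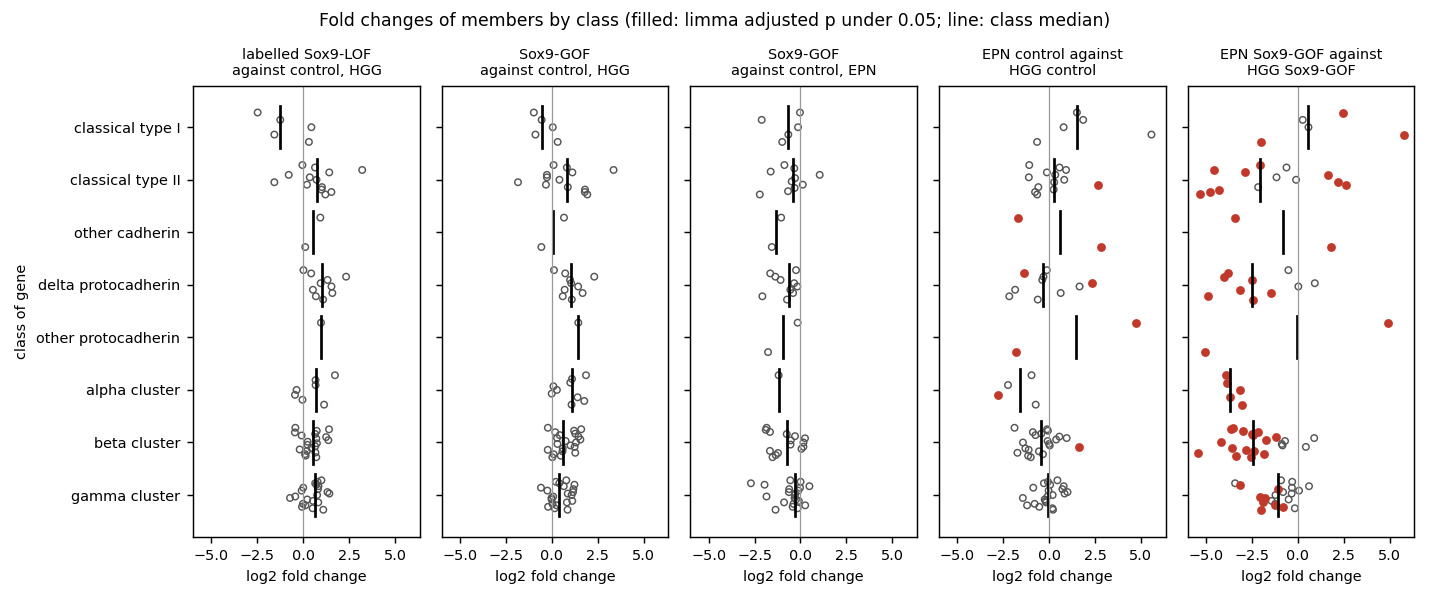
Log2 fold change of every tested member (points) in 5 comparisons (panels), by class (rows), with filled points for an adjusted p under 0.05 and a line at the class median. No point is filled in the 3 comparisons within a model, and the filled points of EPN Sox9-GOF against HGG Sox9-GOF lie to the left of 0 for alpha, beta, gamma and delta protocadherins.

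Of the 5 type I classical cadherins, 2 rose and 1 fell in EPN Sox9-GOF against HGG Sox9-GOF (median 0.58), where 19.6% of all genes were higher and 21.2% lower. Cdh3, the P-cadherin of epithelia, was at 825, 255 and 294 in EPN control and 514, 128 and 213 in EPN Sox9-GOF. It was at 125, 0 and 3.55 in HGG control, 1.17, 0 and 8.90 in the libraries labelled Sox9-LOF and 0.718, 2.94 and 11.4 in HGG Sox9-GOF. All 6 EPN libraries were above all 9 HGG libraries, and the 1 HGG library above 100 was HGG control 1, which also held the choroid plexus transcripts. Between the Sox9-GOF groups Cdh3 rose by 5.79 ± 0.81 (log2, SE) in EPN (adjusted p = 0.00116). Between controls the difference was 5.58 ± 1.69 and did not pass (adjusted p = 0.0720).

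Cdh1, or E-cadherin, lies close to Cdh3 on chromosome 8 (mm10, chr8:106603351-106670246 and chr8:106510891-106557297). Its level was 242, 181 and 915 in EPN control, 192, 283 and 634 in EPN Sox9-GOF and 65.1, 295 and 88.1 in HGG control. It was 24.6, 22.7 and 15.6 in the libraries labelled Sox9-LOF and 71.8, 38.9 and 73.7 in HGG Sox9-GOF. The 3 libraries labelled Sox9-LOF were below every other library. Their difference from HGG controls was -2.48 ± 0.62 (log2, SE; limma adjusted p = 0.163), one that DESeq2 called (adjusted p = 0.00244). Cdh1 rose by 2.44 ± 0.48 in EPN Sox9-GOF against HGG Sox9-GOF (adjusted p = 0.00531).

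Most epithelial markers were also higher in EPN. Over Epcam, Krt8, Krt18, Krt19 and Cldn4 the summed level was 18.5 to 787 in HGG control, 46.8 to 154 in the libraries labelled Sox9-LOF, 99.97 to 135 in HGG Sox9-GOF, 594 to 1406 in EPN control and 883 to 3891 in EPN Sox9-GOF. Cldn4 was at 0 in all 9 HGG libraries. Of the 4 markers tested, 3 rose between the Sox9-GOF groups, where 19.6% of all genes rose. Epcam itself averaged 115 ± 87.1 in HGG control and 62.7 ± 9.89 in EPN control (SD, n = 3). Whether epithelial cells in the tissue account for Cdh1 and Cdh3 was not tested, and in bulk tissue fewer cells of a type and less RNA per cell cannot be told apart.

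The other type I cadherins gave smaller differences between the Sox9-GOF groups. Cdh2 was at 1411, 900 and 859 in HGG control and 1410, 2387 and 1677 in EPN control, groups that overlap. The other groups lay in the same range, at 924 to 1751 in the libraries labelled Sox9-LOF, 862 to 1168 in HGG Sox9-GOF and 1329 to 1807 in EPN Sox9-GOF. Its difference between the Sox9-GOF groups was 0.58 ± 0.20 and missed the threshold (limma adjusted p = 0.0538), though DESeq2 called it (adjusted p = 0.0455). Cdh4, the retinal R-cadherin, was at 152, 223 and 195 in HGG Sox9-GOF and 20.2, 41.9 and 116 in EPN Sox9-GOF, and it fell by 1.99 ± 0.59 on the log2 scale (adjusted p = 0.0294). That call was kept in 8 of 14 alternatives, and it was lost with edgeR, without any 1 of the HGG Sox9-GOF libraries and without EPN Sox9-GOF replicate 1 or 2 (adjusted p up to 0.0879). It averaged 158 ± 55.4 in HGG control, 192 ± 31.9 in those labelled Sox9-LOF and 98.7 ± 26.0 in EPN control (SD, n = 3). Cdh15, the M-cadherin of muscle, was at 142, 143 and 77.8 in EPN control against 12.3, 55.8 and 23.1 in EPN Sox9-GOF and 20.6, 65.6 and 22.7 in HGG control. Neither its difference between the EPN groups (-2.11, adjusted p = 0.168) nor that between controls (1.85, adjusted p = 0.0638) passed in limma, and DESeq2 called both (adjusted p = 0.0256 and 0.0129).

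Type II cadherins split into 3 that rose and 6 that fell in EPN Sox9-GOF against HGG Sox9-GOF, out of 13 tested (median -2.08), where the shares of all genes were 19.6% higher and 21.2% lower. Cdh5, the VE-cadherin of endothelial junctions, was at 69.0, 86.1 and 137 in HGG control and 505, 609.7 and 659.6 in EPN control. The Sox9-GOF groups lay at 85.4, 66.0 and 70.2 in HGG and 508, 460.4 and 405 in EPN, and the libraries labelled Sox9-LOF at 116, 68.1 and 161. No EPN library overlapped an HGG library. Cdh5 rose by 2.64 ± 0.30 (log2, SE) between controls (adjusted p = 0.00555) and by 2.62 ± 0.22 between the Sox9-GOF groups (adjusted p = 0.000189).

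Pcdh12, a non-clustered protocadherin of endothelial junctions, followed the same levels. It was at 6.35, 2.05 and 3.55 in HGG control and 4.31, 3.67 and 0.877 in HGG Sox9-GOF, close to the detection limit. In EPN it reached 90.8, 117 and 176 in controls and 119.7, 135 and 75.9 in Sox9-GOF, so the models again did not overlap. The rise was 4.73 ± 0.52 between controls (adjusted p = 0.00513) and 4.91 ± 0.55 between the Sox9-GOF groups (adjusted p = 0.000477). The 8 endothelial markers (Pecam1, Cldn5, Flt1, Tek, Tie1, Emcn, Kdr and Vwf) summed to 673 to 1710 in HGG and 1819 to 4385 in EPN libraries, with none at 0 in any library. Of these, 5 of 8 rose between controls and 7 of 8 between the Sox9-GOF groups, where 9.51% and 19.6% of all genes rose. The part of vessel content in the Cdh5 and Pcdh12 differences was not tested.

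Of the 13 type II cadherins tested, 6 went the other way between the Sox9-GOF groups. Cdh9, which guides synapses of hippocampal neurons, was at 49.5, 83.7 and 71.9 in HGG Sox9-GOF and 3.60, 0 and 0 in EPN Sox9-GOF. In EPN control it was at 15.8, 4.51 and 15.6 and in HGG control at 5.55, 14.3 and 58.2. The fall between the Sox9-GOF groups was -5.35 ± 0.72 (log2, SE; adjusted p = 0.00103), a fitted value that depends on the pseudocount because 2 of the EPN Sox9-GOF libraries were at 0. Cdh8 fell by 4.81 (adjusted p = 0.00764) and Cdh12 by 4.58 (adjusted p = 0.00282), and each had 1 EPN Sox9-GOF library at 0. Cdh7, Cdh10 and Cdh18 fell as well, by 4.28, 2.08 and 2.88. All of these except Cdh10 passed the filter only through HGG Sox9-GOF. Their direction was thus set by the filter and tests nothing, which leaves Cdh10 (adjusted p = 0.00278). Cdh22, another type II cadherin, did not pass there (-0.09, limma adjusted p = 0.812). The annotation places an antisense gene over exons of Cdh8 and of Cdh9, and how reads of such pairs were assigned is unknown here.

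Cdh11, a mesenchymal cadherin, was lower in every HGG control than in the other HGG libraries, at 360.3, 435 and 300.4 in control, 561, 541 and 602 in those labelled Sox9-LOF and 572, 707 and 610.3 in Sox9-GOF. Its differences from control were 0.65 (adjusted p = 0.210) and 0.82 (adjusted p = 0.0959), the latter called by DESeq2 (adjusted p = 0.0129). Cdh24 was lower without overlap in both, at 92.1, 229.6 and 214 in control against 46.8, 40.9 and 87.9 in those labelled Sox9-LOF and 43.1, 36.0 and 57.9 in HGG Sox9-GOF. Its values were -1.57 (adjusted p = 0.200) and -1.84 (adjusted p = 0.0835), and DESeq2 called both (adjusted p = 0.0350 and 0.00114). Cdh6 was higher without overlap both in HGG Sox9-GOF (0.87) and in those labelled Sox9-LOF (1.02), and neither value passed. Cdh19, a cadherin of Schwann cell precursors, was the 1 member higher without overlap in EPN Sox9-GOF than in EPN control, at 436, 392.4 and 829.6 against 174, 346 and 292 (1.05, adjusted p = 0.238). Against HGG Sox9-GOF it rose by 1.62 ± 0.35 (adjusted p = 0.00852), a call lost with the spread estimated over all 15 libraries (adjusted p = 0.0757). Cdh24 rose there by 2.22 ± 0.47 (adjusted p = 0.00729).

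Cdh13, or T-cadherin, is held in the membrane by a lipid anchor and has no cytoplasmic tail. It was lower in EPN than in HGG in both contrasts. Its level was 337, 490 and 386 in HGG control, 786, 993 and 579 in the libraries labelled Sox9-LOF and 508, 804 and 591 in HGG Sox9-GOF. In EPN it was 129.9, 107 and 137 in control and 57.0, 66.3 and 49.9 in Sox9-GOF. No HGG library overlapped an EPN library, and the EPN groups did not overlap each other. The log2 difference was -1.68 ± 0.23 between controls (adjusted p = 0.00860) and -3.42 ± 0.26 between the Sox9-GOF groups (adjusted p = 0.000138). Within models it was 0.93 for the libraries labelled Sox9-LOF (adjusted p = 0.194), 0.66 for HGG Sox9-GOF (adjusted p = 0.192) and -1.05 for EPN Sox9-GOF (adjusted p = 0.160). DESeq2 called the first (adjusted p = 0.0448) and the last (adjusted p = 0.0148). The call between controls was lost without EPN control 2 (adjusted p = 0.0542).

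The tip-link partners Cdh23 and Pcdh15 differed in opposite directions between the models. Cdh23 was at 19.2 to 35.7 in HGG control and 332, 118 and 142 in EPN control, a rise of 2.82 ± 0.49 (log2, SE; adjusted p = 0.0159). That call was lost without any 1 of the EPN controls (adjusted p up to 0.0581). In Sox9-GOF it was at 13.6, 15.4 and 18.4 in HGG and 64.9, 70.6 and 41.3 in EPN, a rise of 1.81 ± 0.38 (adjusted p = 0.00772). Every EPN Sox9-GOF library was below every EPN control for Cdh23 (-1.56, limma adjusted p = 0.179, DESeq2 adjusted p = 0.0155). Pcdh15, whose start is printed above, was at 319, 672 and 206 in HGG control and 999.9, 1561 and 544 in HGG Sox9-GOF. It was at 81.3, 98.0 and 128 in EPN control and 32.5, 33.1 and 20.2 in EPN Sox9-GOF, with no overlap between the EPN groups, a difference that DESeq2 called (adjusted p = 0.000959) and limma did not (adjusted p = 0.147). The libraries labelled Sox9-LOF lay at 579.9, 768 and 759. Pcdh15 fell between controls by 1.80 ± 0.46 (adjusted p = 0.0452) and between the Sox9-GOF groups by 5.04 ± 0.41 (adjusted p = 0.000168). The first call was lost in 6 of 14 alternatives, among them the fits without HGG control 1, without HGG control 2 and without any 1 of the EPN controls (adjusted p up to 0.152).

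**Figure D3:**
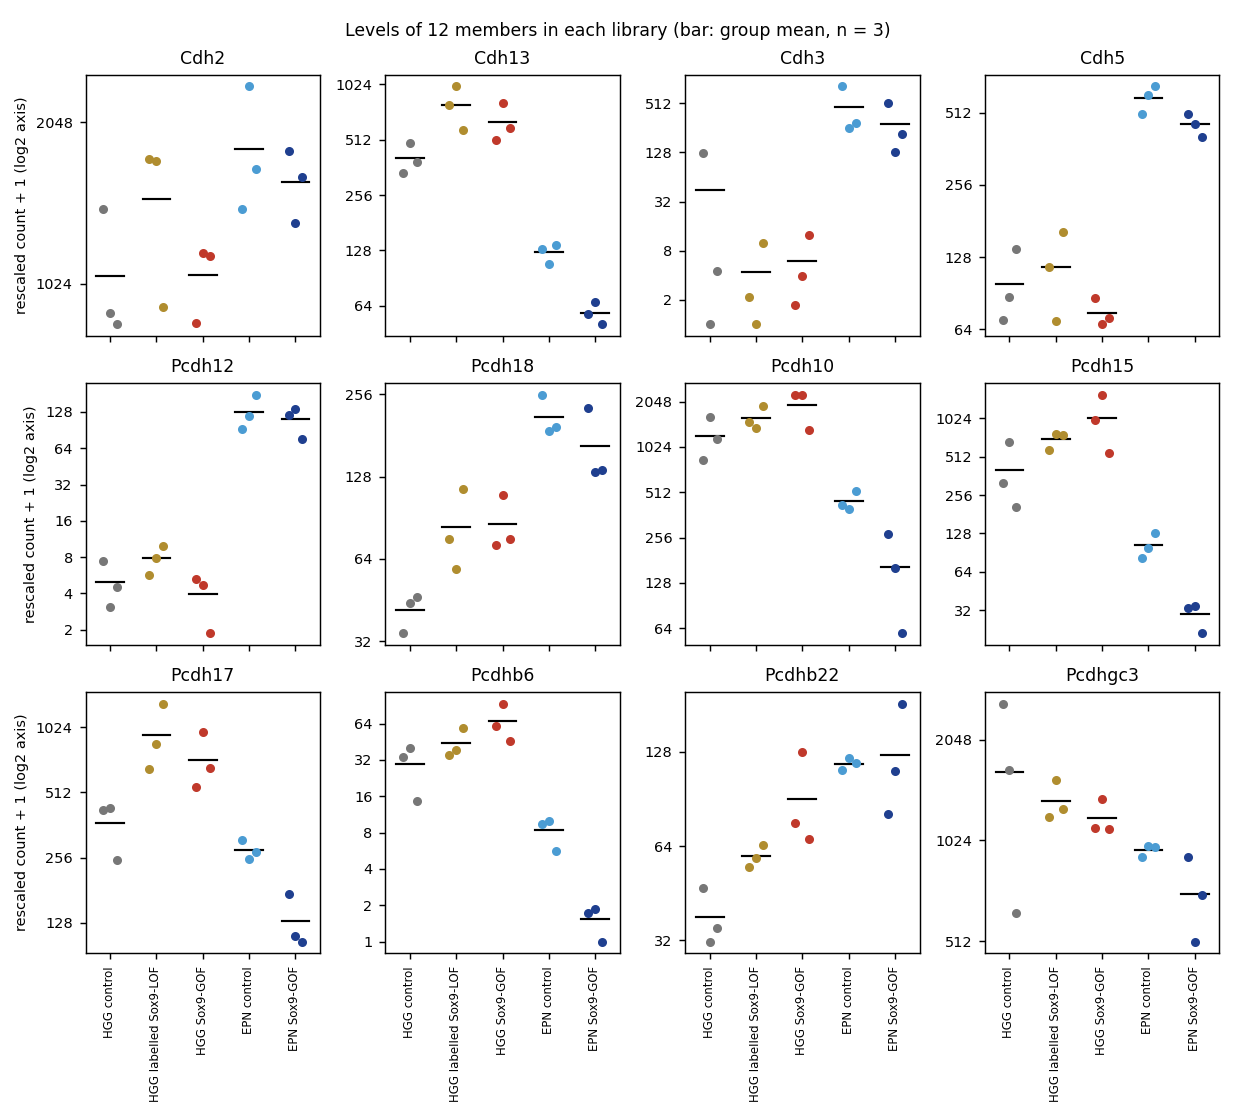
Rescaled count + 1 on a log2 axis for 12 members (panels) in each of the 15 libraries (points), with a bar at the group mean (n = 3). Cdh3, Cdh5, Pcdh12 and Pcdh18 sit higher in all EPN than in all HGG libraries, and Cdh13, Pcdh10, Pcdh15 and Pcdhb6 sit lowest in EPN Sox9-GOF.

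All 10 delta protocadherins were tested in every comparison, and within each model they lay on 1 side of 0. Their median was 1.02 in HGG Sox9-GOF and 1.02 in the libraries labelled Sox9-LOF, with 10 of 10 higher than control each time, and without HGG control 1 it was 0.63 and 0.61 with 9 of 10 higher. In EPN Sox9-GOF 10 of 10 were lower than control (median -0.64). Against HGG Sox9-GOF, 7 of 10 fell in EPN Sox9-GOF and none rose (median -2.47), where 21.2% of all genes fell. Of these 7, Pcdh8 passed the filter only through HGG Sox9-GOF, which set its direction. None of the within-model differences passed the limma test.

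Pcdh10, which binds the WAVE complex and is known as OL-protocadherin, was the most abundant of the class per kb in HGG control, at 75.6 ± 24.6 rescaled counts per kb (SD, n = 3), against 10.2 ± 6.60 in EPN Sox9-GOF. Its rescaled counts were 832, 1609 and 1161 in HGG control, 2253, 2261 and 1328 in HGG Sox9-GOF, 420.4, 393 and 521 in EPN control and 268, 159 and 58.6 in EPN Sox9-GOF. The libraries labelled Sox9-LOF lay at 1489, 1367 and 1915. All EPN libraries were below all HGG libraries. It fell by 1.39 ± 0.28 between controls (adjusted p = 0.0226) and by 3.79 ± 0.52 between the Sox9-GOF groups (adjusted p = 0.00113). The call between controls was kept in 10 of 14 alternatives and lost, among others, without any 1 of the EPN controls (adjusted p up to 0.1065), and that between the Sox9-GOF groups was kept in all 14. An antisense gene overlaps its exons, as it does those of Pcdh7, Pcdh8 and Pcdh19.

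Pcdh8, the activity-induced arcadlin, had the largest fall of the class between the Sox9-GOF groups, at 175, 182 and 285 in HGG and 8.65, 6.98 and 3.84 in EPN (-4.87 ± 0.41, adjusted p = 0.000187). In controls it was at 112, 92.3 and 266 in HGG and 14.8, 42.8 and 43.6 in EPN, which did not overlap but missed the threshold (-2.17, limma adjusted p = 0.0551, DESeq2 adjusted p = 0.00338). Pcdh17, a presynaptic protocadherin that also binds WAVE proteins, was at 539, 969 and 661 in HGG Sox9-GOF and 172, 109.9 and 104 in EPN Sox9-GOF, and it fell by 2.48 ± 0.30 (adjusted p = 0.000666). Its controls lay at 424, 433 and 249 in HGG and 306, 252 and 271 in EPN, and the libraries labelled Sox9-LOF at 655, 857 and 1316. The last were all above the HGG controls (1.33, limma adjusted p = 0.170, DESeq2 adjusted p = 0.0159).

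Pcdh7 gave the smallest limma adjusted p of any member within a model. Its level was 278, 248 and 300.4 in HGG control, 803, 896 and 902 in HGG Sox9-GOF and 974, 558 and 1056 in those labelled Sox9-LOF, with no overlap with control in either. The differences were 1.68 ± 0.17 (adjusted p = 0.0590) and 1.59 ± 0.28 (adjusted p = 0.143), both called by DESeq2 (adjusted p = 8.99e-17 and 8.5e-05). In EPN its groups overlapped, at 282, 529 and 516 in control and 598, 151 and 334 in Sox9-GOF. Pcdh9 was at 202, 375 and 519 in HGG control, 531, 848 and 803 in HGG Sox9-GOF and 784, 521 and 937 in those labelled Sox9-LOF. In EPN it was at 143, 198 and 381 in control and 144, 141 and 104 in Sox9-GOF, and it fell by 2.46 between the Sox9-GOF groups (adjusted p = 0.000380). It was higher than HGG control by 1.09 in both HGG groups without passing (adjusted p = 0.249 and 0.170). The X-linked Pcdh11x was higher by 2.34 and 2.31 without overlap (adjusted p = 0.237 and 0.197). X-linked Pcdh19, the gene of a female-limited epilepsy, was at 16.7 to 213 in HGG control, 159 to 265 in those labelled Sox9-LOF, 101 to 294 in HGG Sox9-GOF, 176 to 259.9 in EPN control and 113 to 422 in EPN Sox9-GOF, ranges that overlap. Libraries with Y-linked reads and little Xist numbered 0 of 3 in HGG control, 2 in the libraries labelled Sox9-LOF, 1 in HGG Sox9-GOF, 1 in EPN control and 3 in EPN Sox9-GOF. The part of sex in the X-linked values was not tested.

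Pcdh18 was the 1 delta protocadherin that rose between controls. It was at 33.3, 43.0 and 45.5 in HGG control and 254, 187 and 193 in EPN control, a rise of 2.35 ± 0.28 (log2, SE; adjusted p = 0.00608) that held in all 14 alternatives tried. The Sox9-GOF groups lay closer, at 71.1, 109 and 74.5 in HGG and 228, 132 and 134 in EPN, and their difference missed the threshold (0.93 ± 0.32, limma adjusted p = 0.0542, DESeq2 adjusted p = 0.0295). Every HGG library was below every EPN library. Pericyte and smooth muscle markers summed to 328 to 726 in HGG and 2760 to 4046 in EPN, and fibroblast and meningeal markers to 2583 to 15899 and 16002 to 30933. Their part in the Pcdh18 difference was not tested.

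The clustered protocadherins are read with a caution, since alpha and gamma isoforms share constant exons at their 3′ ends, beta genes resemble each other, and how such reads were counted is unknown here. The alpha cluster was sparse. Its 12 alternative isoforms summed to 61.1 to 237 rescaled counts in HGG libraries, 17.96 to 39.5 in EPN control and 2.88 to 10.5 in EPN Sox9-GOF. All 5 alpha genes tested fell between the Sox9-GOF groups (median -3.72), where 21.2% of all genes fell. Pcdha2, Pcdha3, Pcdha10 and Pcdha12 averaged 1.14, 1.35, 0.801 and 1.06 in EPN Sox9-GOF. They reached the mean of 10 only through HGG Sox9-GOF, so their direction was set by the filter and tests nothing. Pcdhac2, a C-type isoform that neurons express without choice of promoter, led the cluster in 14 of 15 libraries. Its level was 126, 88.8 and 163 in HGG Sox9-GOF and 33.9, 13.9 and 5.76 in EPN Sox9-GOF, and it fell by 3.02 (adjusted p = 0.00622). It averaged 67.4 ± 43.2 in HGG control, 139.7 ± 63.7 in those labelled Sox9-LOF and 39.4 ± 23.7 in EPN control (SD, n = 3). Pcdha3 was the 1 alpha gene that also fell between controls, from 20.6, 30.8 and 16.3 in HGG to 3.17, 2.25 and 1.56 in EPN (-2.81, adjusted p = 0.0277). There too it reached the mean of 10 only through the HGG libraries. Its call was kept in 7 of 12 alternatives and lost, among others, without HGG control 3 and without any 1 of the EPN controls (adjusted p up to 0.107).

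Beta protocadherins are encoded by single exons that run in the order of their numbers on 1 strand of the array. The difference between the models was not the same for lower-numbered and higher-numbered genes. Between the Sox9-GOF groups, 16 of 21 tested beta genes fell and none rose (median -2.41), where 21.2% of all genes fell and 19.6% rose. Of those that fell, Pcdhb2, Pcdhb3, Pcdhb4, Pcdhb6, Pcdhb8, Pcdhb11, Pcdhb12, Pcdhb13 and Pcdhb15 averaged 0.531 (Pcdhb6) to 9.78 (Pcdhb3) in EPN Sox9-GOF. These reached the mean of 10 only through HGG Sox9-GOF, so their direction was set by the filter. All 14 tested genes of Pcdhb1 to Pcdhb15 fell (median -2.89), the genes just named among them, against 2 of 7 of Pcdhb16 to Pcdhb22 (median -0.83). Of the 14, those not so set were Pcdhb5, Pcdhb7, Pcdhb9, Pcdhb10 and Pcdhb14, which averaged 12.4 to 32.0 in EPN Sox9-GOF. Between controls the medians were -0.94 and 0.38, with differences above 0 for 0 of 14 and 5 of 7, of which Pcdhb22 alone passed the limma test. In EPN Sox9-GOF against EPN control they were -1.59, with differences below 0 for 8 of 8 tested and none passing, and 0.05. Of those 8, Pcdhb3, Pcdhb11 and Pcdhb12 passed the filter there only through EPN control. The division at Pcdhb16 was chosen after these values were seen, so its counts describe the array and test nothing.

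The share of beta reads that came from Pcdhb16 to Pcdhb22 restates that division in the same reads, so it tests nothing further. It was 21.1% to 31.8% in HGG control, 29.2% to 32.4% in the libraries labelled Sox9-LOF and 29.2% to 31.1% in HGG Sox9-GOF. It was 47.9% to 55.9% in EPN control and 62.4% to 81.7% in EPN Sox9-GOF, so that these 3 sets did not overlap. The lowest EPN control share rested on 350 of 731 reads (Wilson 95% interval 44.3% to 51.5%) and the lowest EPN Sox9-GOF share on 373 of 598 (58.4% to 66.2%), intervals that cover counting error only. Pcdhb17 and Pcdhb22 together gave 7.74% to 13.7% of beta reads in HGG libraries, 26.95% to 31.8% in EPN control and 41.3% to 52.4% in EPN Sox9-GOF. In levels, Pcdhb1 to Pcdhb15 summed to 620 to 1377 in HGG, 402 to 502 in EPN control and 135 to 196 in EPN Sox9-GOF. Pcdhb16 to Pcdhb22 summed to 276 to 622, 369.7 to 638 and 325 to 604, ranges that overlap.

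**Figure D4:**
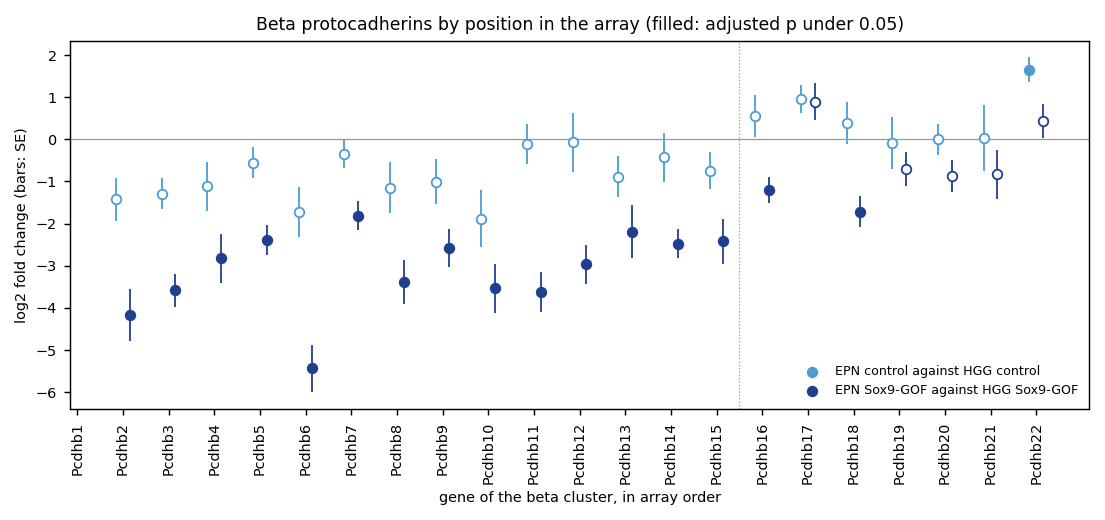
Log2 fold change ± SE of each tested beta gene in array order, EPN control against HGG control (light) and EPN Sox9-GOF against HGG Sox9-GOF (dark), with filled points for an adjusted p under 0.05 and a dotted line after Pcdhb15. To the left of that line all 14 dark points are filled and below 0, and to its right 2 of 7 dark points are filled. Many of the 14 passed the filter only through HGG Sox9-GOF, which set their direction.

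Single beta genes show both ends of the array. Pcdhb6 was at 60.3, 92.5 and 44.7 in HGG Sox9-GOF and 0.721, 0.872 and 0 in EPN Sox9-GOF, the largest fall of any member (-5.44 ± 0.56, adjusted p = 0.000370). In controls it was at 32.5, 39.0 and 13.5 in HGG and 8.45, 9.02 and 4.67 in EPN. Because 1 EPN Sox9-GOF library was at 0 and the others under 1, its fitted fold depends on the pseudocount. With a pseudocount of 8 it was -3.06 and no longer the largest fall, as Pcdh15 was at -4.675 or below in every alternative. Pcdhb22, at the other end, was at 46.0, 30.8 and 34.1 in HGG control and 111, 122 and 117 in EPN control, a rise of 1.65 ± 0.29 (adjusted p = 0.0171). That call was kept in 10 of 14 alternatives and lost, among others, without any 1 of the EPN controls (adjusted p up to 0.0986). Between the Sox9-GOF groups it overlapped, at 74.7, 127 and 66.6 in HGG and 80.03, 109.9 and 182 in EPN. Pcdhb17 was at 69.6, 101 and 85.9 in HGG Sox9-GOF and 307, 106 and 122 in EPN Sox9-GOF, a difference of 0.89 that missed the threshold (adjusted p = 0.136).

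In HGG, the beta genes with no overlap between Sox9-GOF and control were all higher. Pcdhb18 was at 45.2, 34.9 and 19.9 in control, 91.9, 106 and 83.3 in Sox9-GOF (1.56, limma adjusted p = 0.0903) and 66.6, 70.4 and 126 in those labelled Sox9-LOF (1.37, adjusted p = 0.214). Pcdhb11 was at 16.7, 36.9 and 18.5 in control, 102, 55.0 and 58.8 in Sox9-GOF and 71.3, 43.1 and 76.8 in those labelled Sox9-LOF, differences of 1.60 (adjusted p = 0.118) and 1.41 (adjusted p = 0.217). DESeq2 called 5 beta genes higher in HGG Sox9-GOF (Pcdhb11, Pcdhb14, Pcdhb16, Pcdhb18 and Pcdhb22) and none in the libraries labelled Sox9-LOF. Of all genes it called 7.26% and 4.23% higher there, so the backgrounds differ. In EPN Sox9-GOF it called Pcdhb5 and Pcdhb7 lower, with 4.94% of all genes.

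The gamma cluster was dominated by 1 isoform. Pcdhgc3, a C-type gamma protocadherin expressed beyond neurons, gave 27.2% to 78.1% of gamma reads, with the lowest and the highest share both in HGG controls (replicates 3 and 1). In the other 4 groups its share ran from 39.05% to 59.6%. Its level was 2621, 1663 and 619 in HGG control, 1111, 1363 and 1110 in HGG Sox9-GOF, 915, 983 and 979 in EPN control and 914, 510.2 and 703 in EPN Sox9-GOF, and 1202 to 1556 in the libraries labelled Sox9-LOF. The fall between the Sox9-GOF groups was small (-0.79 ± 0.24, adjusted p = 0.0341) and kept in 7 of 14 alternatives. Pcdhgc5, a C-type isoform largely of neurons, fell by more, from 321, 229.7 and 440.2 in HGG to 72.8, 64.5 and 98.9 in EPN (-2.03 ± 0.31, adjusted p = 0.00185). In EPN control it was at 157, 274 and 205, above all 3 EPN Sox9-GOF libraries (-1.36, limma adjusted p = 0.151, DESeq2 adjusted p = 0.00287). Of 21 gamma genes tested, 8 fell between the Sox9-GOF groups and none rose (median -1.09), where 21.2% of all genes fell and 19.6% rose. The calls of Pcdhga4, Pcdhga9, Pcdhgb7 and Pcdhgc3 were each lost in 6 to 8 of the 13 or 14 alternatives run. Among the alternative isoforms Pcdhga12 fell most, from 44.5, 85.9 and 99.97 in HGG to 7.21, 6.98 and 7.68 in EPN (-3.15, adjusted p = 0.00118). It passed the filter only through HGG Sox9-GOF, which set its direction.

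Neuronal markers were at their lowest summed level in EPN Sox9-GOF. The 10 markers (Rbfox3, Snap25, Syt1, Tubb3, Dcx, Map2, Gad1, Gad2, Slc17a7 and Stmn2) summed to 6867 to 44098 in HGG control, 20099 to 42430 in the libraries labelled Sox9-LOF, 22840 to 33085 in HGG Sox9-GOF, 5774 to 12874 in EPN control and 2063 to 3482 in EPN Sox9-GOF. All 10 fell between the Sox9-GOF groups (median -4.26), where 21.2% of all genes fell. In EPN Sox9-GOF 10 of 10 were lower than in EPN control (median -2.10), as were 6570 of 14591 genes, though no marker passed there. Oligodendrocyte precursor markers summed to 13680 to 45763 in HGG, 6327 to 6413 in EPN control and 3613 to 4595 in EPN Sox9-GOF. No marker of either list was at 0 in any library. The part of neurons and precursor cells in the protocadherin differences was not tested.

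The Sox9-GOF difference was itself compared between the models, as the EPN difference minus the HGG difference. It was below 0 for 72 of 79 members (median -1.57), against 7897 of 15088 genes (median -0.05). The test called 7 members lower and none higher, where 3.47% and 2.63% of all genes were called, and DESeq2 called 23 lower and 1 higher (8.39% and 7.97% of all genes). The 7 were Cdh13, Cdh9, Pcdh15, Pcdh17, Pcdhb3, Pcdhb6 and Pcdhb11. The EPN and HGG comparisons with their own controls share no library. Of 65 members tested in both, 44 (67.7%) were higher in HGG Sox9-GOF and lower in EPN Sox9-GOF, as were 3856 of 14120 genes (27.3%). That held for 35 of 48 protocadherins and 9 of 17 cadherins.

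The called members gave these values. Pcdhb11 had a difference of -3.51 ± 0.61 (log2, SE; adjusted p = 0.0193), from 1.60 in HGG and -1.89 in EPN. Pcdh15 had -3.23 ± 0.66 (adjusted p = 0.0254), from 1.44 and -1.77. Pcdh17 had -2.10 ± 0.42 (adjusted p = 0.0231), from 0.99 and -1.08. These 3, with Cdh13 at -1.74 ± 0.33 (adjusted p = 0.0214), were called in at least 15 of the 19 or 20 alternatives run for each. Pcdhb3, at 40.1, 24.8 and 35.8 in EPN control and 8.65, 13.9 and 6.72 in EPN Sox9-GOF, had -2.28 ± 0.50 (adjusted p = 0.0303), and Pcdhb6 had -3.71 ± 0.76 (adjusted p = 0.0255), calls kept in 12 of 20 and 12 of 19 alternatives. Cdh9 had -4.70 ± 1.23 (adjusted p = 0.0496), a call kept in 5 of 19 alternatives. Without HGG control 1, 5 members were called. The count was 18 without HGG control 3 and 11 without EPN Sox9-GOF replicate 1. It was 3 without HGG Sox9-GOF replicate 1 or EPN Sox9-GOF replicate 3, 1 without HGG Sox9-GOF replicate 2 or 3, and 0 without EPN control 2 or 3. Calls over all genes moved as well. With all libraries 523 of 15088 genes were called lower, against 1308 of 15047 without HGG control 3. Without EPN control 2 and 3 they were 29 of 15108 and 27 of 15101. For Sox9 itself the difference was -1.39 (adjusted p = 0.0215), so the model with the higher Sox9 level in its controls showed the smaller gain.

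**Figure D5:**
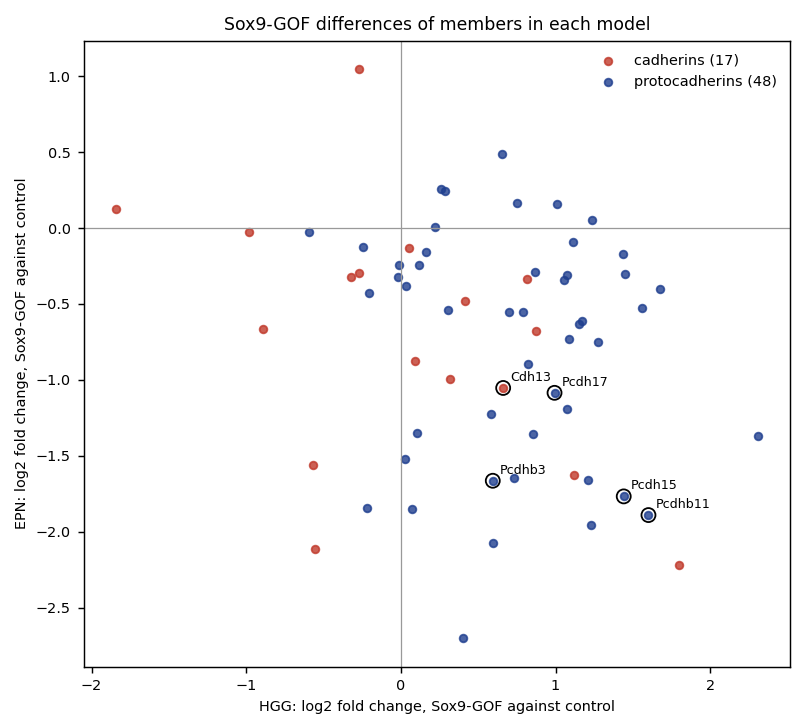
Log2 fold change of Sox9-GOF against control in HGG (x) and EPN (y) for 65 members tested in both, cadherins and protocadherins in 2 colours, with rings around the 5 members whose effects differed between the models at an adjusted p under 0.05. The lower right quadrant, higher in HGG and lower in EPN, holds 44 of the 65. Cdh9 and Pcdhb6 were not tested in EPN and are not shown.

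Genes that act with the cadherins were read from lists by role, and their counts stand against 19.6% of all genes higher and 21.2% lower between the Sox9-GOF groups, and 9.51% and 5.83% between controls. Of 12 catenins and junction linkers tested, 3 rose and 3 fell between the Sox9-GOF groups. Ctnnd2, the delta-catenin of neurons, fell by 3.76 (adjusted p = 0.000750) and Ctnna2, the neuronal alpha-catenin, by 2.80 (adjusted p = 0.000214). Of 10 protocadherin signalling partners, 6 fell and none rose. The WAVE subunit Wasf1 fell by 3.90 (adjusted p = 0.000104) and Abi2 by 2.12 (adjusted p = 0.000261), and Wasf1 also fell by 2.17 between controls (adjusted p = 0.00628). For Wasf1, Abi2 and the receptor Ret the Sox9-GOF difference was lower in EPN than in HGG (-1.74, -1.62 and -3.69, adjusted p = 0.0264, 0.0230 and 0.0188).

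All 6 cadherin-cleaving enzymes tested rose between the Sox9-GOF groups, and 4 of 6 rose between controls. Adam10, which sheds cadherin ectodomains, rose by 1.66 between controls (adjusted p = 0.00471), and the presenilin Psen2 by 2.57 (adjusted p = 0.00608). Of desmosomal cadherins and plaque proteins, 2 of 6 tested rose between controls and 3 of 5 between the Sox9-GOF groups. The desmosomal cadherin Dsg2 rose by 4.15 (adjusted p = 0.0137) and 4.45 (adjusted p = 0.000758), and Dsc2 by 4.41 (adjusted p = 0.0323) and 2.91 (adjusted p = 0.00346). Of 6 repressors of Cdh1 tested, 3 rose and 2 fell between the Sox9-GOF groups. Twist1 and Snai2 rose by 5.43 and 3.71 in the same contrast in which Cdh1 rose (adjusted p = 0.000305 and 0.00413), while Zeb2 fell by 1.44 (adjusted p = 0.00127). Of 12 regulators of the protocadherin clusters, CTCF and cohesin among them, 4 rose between controls and none was called between the Sox9-GOF groups (median 0.09).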

How the data were processed

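The values the authors deposited are a signal per gene, namely reads over a size factor that was set per library and table, in 3 tables of 24421 genes and 6 libraries. The submitters' processing notes name STAR 2.5.0a, FastQC 0.11.7, MultiQC 1.11, DESeq2 1.30.1 and mm10. The counter and its strand setting are unknown here (not given in the sources used here). Per the labels' protocols, RNA was extracted with trizol and RNeasy columns and libraries made with a stranded poly(A) kit. Whole reads were recovered for 100% of values (within 0.01 read), and both HGG tables held the same HGG control reads.

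Tests within a model took genes averaging 10 or more in the libraries compared. They used limma 3.58.1 (R 4.3.3, trended variance) on log2(deposited value + 1), with a threshold of 0.05 after Benjamini-Hochberg adjustment. Fold changes on that scale understate the change of low genes. Tests between models, and printed levels, used reads rescaled over 15 libraries by the median of ratios. The design had assumed raw counts, so edgeR 4.0.16 and DESeq2 1.42.0 on recovered reads became alternatives. The script was tested on simulated data.

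Members and lists were chosen with earlier results of these data known. Named were called members (the 6 largest in each direction where over 12 were called), up to 3 non-overlapping members per class and direction, 15 set members and up to 3 partners per list. Replicate numbers come from the titles. Deviations of same-numbered HGG control and Sox9-GOF libraries correlated at 0.178, 0.443 and 0.224, so these may be paired. However, HGG control 3 and HGG Sox9-GOF 1 correlated at 0.295, and the other differently numbered pairs at -0.485 to -0.0304. In the other comparisons at least 1 same-numbered pair was under 0.1. No columns of samples were left unused (0). Gene spans and exon lengths were read from GENCODE on GRCm38 (mm10), and Pcdha10 had no match there.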

Additional observations from a re-analysis of the deposited data

Results flagged for a closer look

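For 7 members the Sox9-GOF difference was not the same in the 2 models by a test of the difference itself, given as the EPN difference minus the HGG difference on the log2 scale. It was -1.74 for Cdh13, -4.70 for Cdh9, -3.23 for Pcdh15, -2.10 for Pcdh17, -3.51 for Pcdhb11, -2.28 for Pcdhb3 and -3.71 for Pcdhb6. In all 7 the HGG Sox9-GOF mean was above the HGG control mean and the EPN Sox9-GOF mean below the EPN control mean. Cdh9 and Pcdhb6 rest on EPN Sox9-GOF libraries under 4 rescaled counts, with 2 and 1 of 3 at 0. Neuronal markers had a median of -3.13 in the same contrast, with 10 of 10 below 0 and 1 called. Of all genes, 7897 of 15088 were below 0, and 3.47% were called lower and 2.63% higher. The part of neurons was not tested.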

How the results depend on the processing

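No called result changed direction under any alternative; 2 cadherin medians changed sign, that between controls with DESeq2 (-0.13), with edgeR (-0.17) and without HGG control 1, and that of HGG Sox9-GOF without HGG Sox9-GOF 3. All 75 group levels under TMM scaling stayed within 1 SD. Over all pairs of a named fold change and an alternative, 1057 kept their side of the threshold, 75 lost a call and 47 gained one. The counts of called members depended on the tool. With DESeq2 they were 3 higher and 2 lower for the libraries labelled Sox9-LOF, 8 and 1 for HGG Sox9-GOF, 10 lower for EPN Sox9-GOF, 14 lower between controls, and 1 higher and 23 lower for the difference of the Sox9-GOF effects. With the spread estimated over 15 libraries they were 3 and 1, 7 and 1, 3 lower, 13 lower and 15 lower in that order. With a mean of at least 50 they were 1 higher for HGG Sox9-GOF, 24 lower between the Sox9-GOF groups and 4 lower for the difference of effects, where fewer genes were tested. Over all genes the same calls were 117 of 12917, 2579 of 12786 and 542 of 12881. The cadherin median between the Sox9-GOF groups was -0.42 with no minimum and -0.35 with a mean of at least 50. With a pseudocount of 8 the protocadherin median was -1.54 there and -1.21 for the difference of effects. The causes were not tested.

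Leaving out 1 replicate at a time moved the cadherin median from -0.0081 (without HGG Sox9-GOF 3) to 0.58 (without HGG control 2) and the protocadherin median from 0.43 (without HGG control 1) to 0.84 in HGG Sox9-GOF. In EPN Sox9-GOF the ranges were -1.01 to -0.43 and -0.77 to -0.41, with both lowest values without EPN Sox9-GOF 1. Between controls the counts ran from 3 to 7 higher and 0 to 6 lower, and the cadherin median from -0.30 (without HGG control 1) to 0.60, and the protocadherin median from -0.51 (without HGG control 1) to -0.06 (without HGG control 3). Between the Sox9-GOF groups the cadherin median ran from -1.32 to -0.52 and the protocadherin median from -1.99 to -1.60. For the difference of effects 0 (without EPN control 2 or 3) to 18 (without HGG control 3) members were lower. Of all genes, 27 (without EPN control 3) to 1308 (without HGG control 3) were. The protocadherin median ran there from -1.75 to -1.41.

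With a replicate block, 1 member was lower between controls, 43 between the Sox9-GOF groups and 6 for the difference of effects. Over all genes 396 of 15105, 2903 of 14964 and 466 of 15088 were called lower. The block called 0 members in each of the 3 comparisons within a model and changed no other count by over 1.5 times. Depth limits the low members: HGG control 2 had the fewest reads, and EPN Sox9-GOF 3 the fewest members with a read (75 of 93).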
